A study of Mus musculus with 21 samples.

Results

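Glycolysis converts glucose to pyruvate and lactate in the cytosol, and 10 of its genes were followed here through nascent and total RNA of mouse embryonic stem cells (ESCs) with and without *Ddx6*. They were matched by symbol and were chosen with earlier results of these data known, though the rule itself uses no measured value. They are *Slc2a1*, *Hk1*, *Hk2*, *Pfkp*, *Aldoa*, *Gapdh*, *Pgk1*, *Eno1*, *Pkm* and *Ldha*. All 10 were among the 51467 genes of the count tables, and all 10 passed the filter on low counts that 14518 genes passed.

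DDX6 is a DEAD-box RNA helicase of processing bodies that is bound by the mRNA decapping and deadenylation machinery, and the study asked how its loss changes mRNA stability. The wild-type (WT) group was 3 cultures of wild-type ESCs. The *Ddx6* KO group was 4 cultures, 2 of each of 2 CRISPR-Cas9 clones, one with an insertion and the other with a deletion at the start of exon 7. A difference between genotypes is therefore also a difference between these 2 clones and the wild-type cells they were compared with. All cultures grew in serum with LIF and 2i (PD0325901 and CHIR99021) and received 500 µM 4-thiouridine (4sU) for 30 minutes, a uridine analogue that enters RNA made during the pulse. RNA of each culture was divided, so that captured 4sU RNA gave a nascent library and rRNA-depleted RNA gave a total library. Nothing in the labels says that cultures of a group came from separate thaws or days, so the p-values measure the spread between these cultures. The cells are bulk cultures, in which fewer cells of a kind and less RNA per cell cannot be told apart.

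The 14 libraries held 2441639 to 3570192 assigned counts in 4sU RNA and 5724179 to 7369651 in total RNA. Total RNA of *Ddx6* itself was 333, 383 and 391 CPM in WT, 57.2 and 67.7 CPM in KO clone 1 and 23.1 and 21.5 CPM in KO clone 2, where CPM is a count scaled to its library total, with TMM factors between libraries. The 8 pluripotency markers summed to 4894 to 5025 CPM in WT total RNA and to 4808 to 4970 CPM in KO. The 8 fibroblast and feeder markers summed to 4.63 to 7.35 CPM in WT and 12.6 to 15.6 CPM in KO, with *Col1a2*, *Col3a1*, *Lum*, *Postn* and *Dcn* at 0 in WT and *Postn* and *Dcn* at 0 in KO. Primed epiblast markers summed to 142 to 155 CPM in WT and 81.6 to 92.4 CPM in KO. Neural markers summed to 170 to 185 CPM in WT and 144 to 160 CPM in KO, and mesoderm and endoderm markers to 6.43 to 9.81 CPM and 7.79 to 9.83 CPM. The part of these cell states in the glycolysis values was not tested. Genes on chromosome 6, where *Hk2* and *Gapdh* lie, had a median log2 fold change of 0.53 in nascent and 0.43 in total RNA of KO, against -0.02 and -0.12 for genes elsewhere.

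In ESCs, as in many dividing cells, glucose enters through SLC2A1 (GLUT1) and SLC2A3 (GLUT3) and is trapped by hexokinase. Phosphofructokinase makes the committed step, aldolase cleaves the sugar, GAPDH, PGK1, enolase and pyruvate kinase carry the triose to pyruvate, and lactate dehydrogenase reduces pyruvate to lactate and regenerates NAD+. Most of these enzymes exist as isoenzymes from separate genes, and several of the genes have left retrotransposed copies, called processed pseudogenes, throughout the mouse genome.

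These copies decide which reads could be counted, since the authors kept only reads that aligned to a single place. Of the 50-base windows of each gene's principal transcript, the length of a single-end read, 82.5% of the *Gapdh* windows occurred exactly in another annotated gene. The share was 72.2% for *Eno1*, 68.0% for *Pgk1*, 30.5% for *Pkm*, 17.1% for *Ldha* and 13.9% for *Aldoa*. No window of *Slc2a1*, *Hk1*, *Hk2* or *Pfkp* was copied outside its own locus. An annotated gene that overlaps a member was not counted as a copy, and 1 such gene shared windows with each of *Slc2a1*, *Pfkp* and *Pkm*. *Gapdh* windows lay in 222 other genes, of which 213 were annotated as pseudogenes, and all of its coding windows were copied. Coding stretches of *Gapdh* and *Eno1*, the most copied members, are printed beside a processed pseudogene to show how little separates them. Each is 60 bases of mRNA sense sequence from GENCODE M21 (GRCm38), with the only differing base in capitals, so that a read from the lower-case part fits both genes.
Gapdh: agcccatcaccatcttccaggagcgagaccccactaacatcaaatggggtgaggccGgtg
Gm12419: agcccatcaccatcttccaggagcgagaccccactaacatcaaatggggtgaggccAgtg
Eno1: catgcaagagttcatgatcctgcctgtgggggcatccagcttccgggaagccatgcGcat
Gm5855: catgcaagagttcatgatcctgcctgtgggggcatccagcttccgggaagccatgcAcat
The *Gapdh* stretch is exon 3 of the principal transcript (chr6:125163192-125163251, minus strand) and its partner lies at chr4:84923916-84923975 on the minus strand. The *Eno1* stretch is in exon 7 (chr4:150245162-150245221, plus strand) beside chr3:130930120-130930179 (minus strand).

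The copied share went with the kind of sequencing run. The 4sU libraries were sequenced once with single-end 50-base reads and again with paired-end reads, and both runs were summed, while the total libraries had single-end reads alone. *Gapdh* in 4sU RNA of WT averaged 83.2 CPM in the single-end run and 791 CPM in the paired-end run. *Pgk1* averaged 6.22 and 33.3 CPM in the same runs, *Eno1* 103.3 and 308 CPM, and *Pkm* 353 and 538 CPM. Over all 7 cultures, the ratio of paired-end to single-end CPM was 10.3 for *Gapdh*, 4.50 for *Pgk1*, 3.05 for *Eno1* and 1.61 for *Pkm*. In the 6 members with fewer than 20% of windows copied, the ratio lay between 0.735 for *Slc2a1* and 1.07 for *Ldha*. A comparison of total with 4sU RNA thus also compares 2 kinds of reads in every gene, and the runs differed most for *Gapdh*, *Pgk1*, *Eno1* and *Pkm*. In 4sU RNA, a comparison of KO with WT also rests on the mix of both runs, whose proportions differed between libraries.

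**Figure D1:**
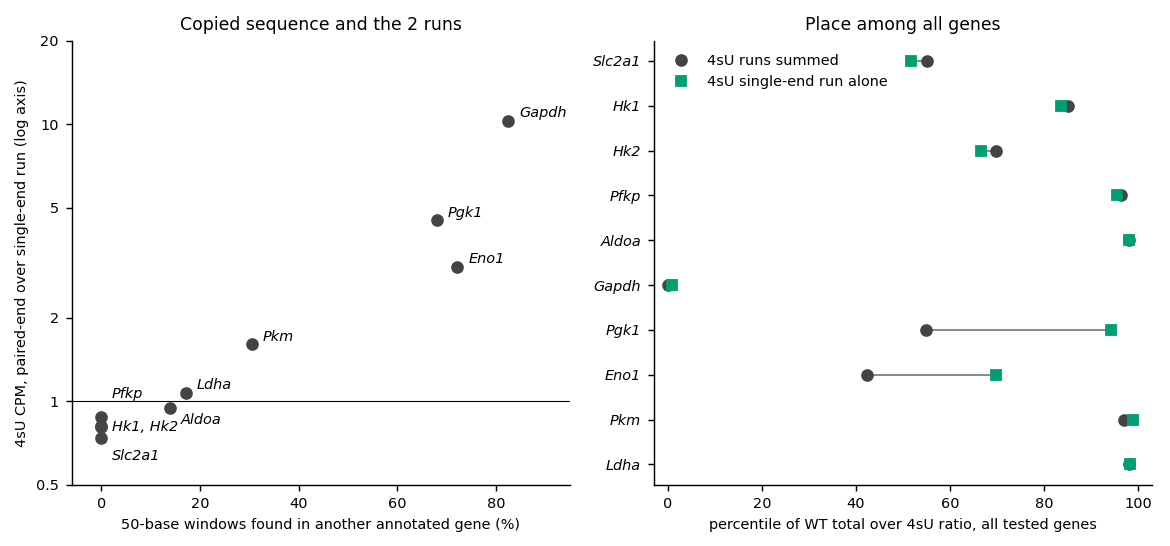
Left, the share of 50-base windows of each member found in another annotated gene outside its own locus (x axis, %) against the ratio of 4sU CPM in the paired-end run to that in the single-end run over 7 cultures (y axis, log scale). Right, the percentile of each member's WT total over 4sU ratio among 14518 genes with the 4sU runs summed (circles) and with the single-end run alone (squares). *Gapdh* has the largest copied share, 82.5%, and the largest ratio, 10.3. The percentile of *Pgk1* moves from 54.8 to 94.3, the latter from 6.22 CPM in single-end 4sU RNA of WT.

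Across the members, RNA of the glycolysis genes was lower in *Ddx6* KO cells, in nascent as well as in total RNA. In the edgeR quasi-likelihood test at an adjusted p below 0.05, 8 of the 10 were lower, 1 was higher and 1 was not called, both in nascent and in total RNA. Of all 14518 genes, 21% were called lower and 20.6% higher in nascent RNA, and 31% lower and 19.5% higher in total RNA. The median log2 fold change of the members was -0.51 in nascent and -0.66 in total RNA, beside 0.00 and -0.10 over all tested genes. The same 8 genes were lower in both, and 7 of those 8 had a more negative estimate in total than in nascent RNA. Over all tested genes the median of that difference, total less nascent, was also below 0, at -0.09. It was -0.002 with TMM factors computed within each kind of RNA. The share of all genes with a more negative estimate in total RNA was not counted. With the 4 members of many copied windows set aside, 5 of 6 were lower and *Hk2* was higher in both kinds of RNA. Scaling by library totals alone moved the median of all genes to 0.21 in nascent, 0.06 in total RNA and -0.14 in stability, and the share of calls that were higher from 49.5% to 74.1%, from 38.6% to 60.3% and from 30.6% to 20.3%. Among the members, only *Pgk1* in total RNA passed a log2 fold change of 1, where 10.9% of all genes did so in nascent and 10.1% in total RNA. In each kind of RNA, KO and WT cultures did not overlap for 9 of 10 members, a separation that 41.7% of all genes showed in nascent and 52.4% in total RNA.

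**Figure D2:**
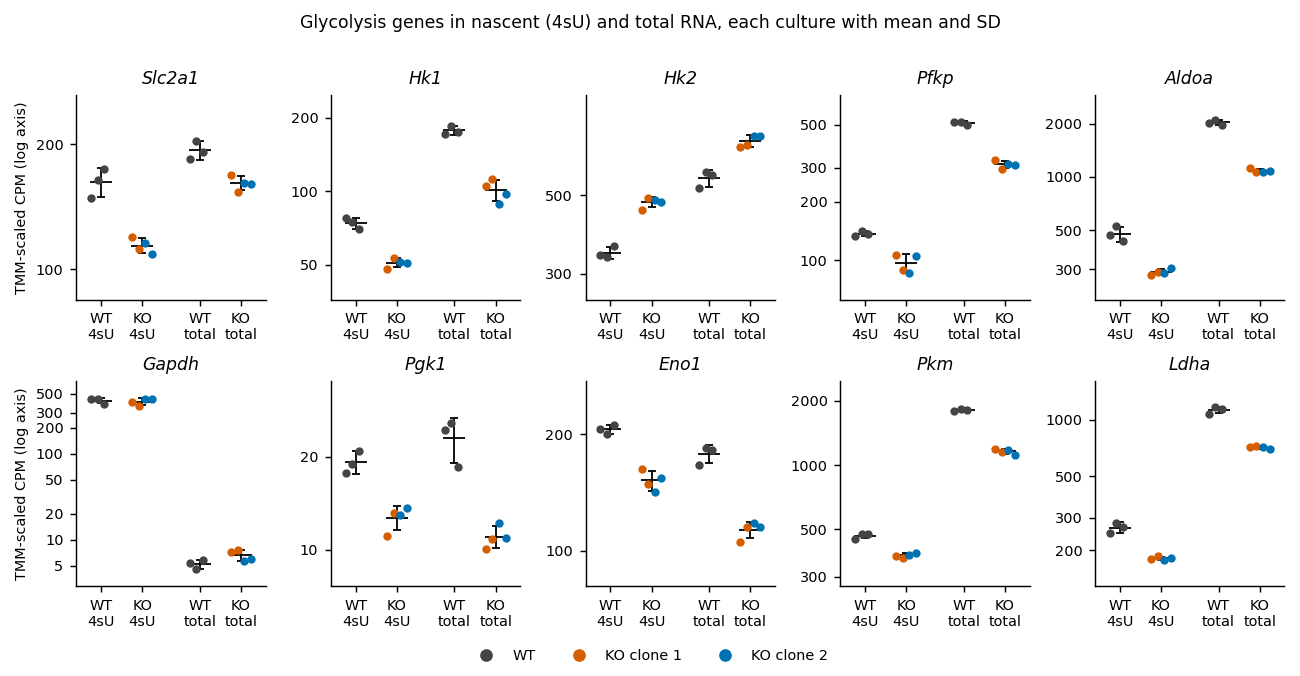
TMM-scaled CPM (log axis) of each member in 4sU and total RNA of 3 WT cultures, 2 cultures of KO clone 1 and 2 of KO clone 2, with mean and SD as bars. KO cultures lie below WT cultures in both kinds of RNA for 8 genes and above them for *Hk2*, and *Gapdh* is near 5 CPM in WT total RNA while it is near 417 CPM in WT 4sU RNA.

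*Slc2a1* (ENSMUSG00000028645, chromosome 4, 119108711 to 119137983), the basal glucose transporter GLUT1, had 148, 164 and 175 CPM in 4sU RNA of WT. Its 4sU values in KO were 119 and 112 CPM in clone 1 and 116 and 109 CPM in clone 2, all below the lowest WT culture. In total RNA it had 184, 204 and 192 CPM in WT and 169, 154, 161 and 160 CPM in KO, again without overlap. KO over WT was thus -0.51 on the log2 scale in nascent RNA (SE 0.07, edgeR adjusted p = 2.73e-08), and the difference in total RNA was smaller, -0.26 (SE 0.06, edgeR adjusted p = 0.000196). *Slc2a1* was the member whose total RNA fell least among the 8. Its total RNA call was lost when libraries were scaled by their totals alone (log2 fold change -0.11, adjusted p = 0.138).

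The hexokinases, which phosphorylate glucose, moved in opposite directions. *Hk1* (ENSMUSG00000037012, chromosome 10, 62268855 to 62379908) had 77.6, 74.7 and 69.9 CPM in 4sU RNA of WT and 48.1, 53.3, 51.5 and 50.96 CPM in KO. In total RNA its values were 172, 186 and 174 CPM in WT, and 105, 112, 88.7 and 97.8 CPM in KO. All KO cultures were thus well below WT, with log2 fold changes of -0.54 in nascent (SE 0.10, adjusted p = 5.28e-06, edgeR) and -0.81 in total RNA (SE 0.07, adjusted p = 3.62e-16, edgeR). *Hk2* (ENSMUSG00000000628, chromosome 6, 82725025 to 82774454) had 338, 334 and 360 CPM in 4sU RNA of WT and 456, 492, 485 and 479 CPM in KO. Its total RNA was 525, 584 and 571 CPM in WT and 686, 697, 739 and 735 CPM in KO, so that every KO culture was above every WT culture. The log2 fold changes of *Hk2* were 0.48 in nascent (SE 0.06, adjusted p = 4.60e-10, edgeR) and 0.35 in total RNA (SE 0.05, adjusted p = 7.66e-08, edgeR). Set against the median of chromosome 6, the same estimates were -0.06 and -0.08. The part of the chromosome in the *Hk2* difference was not tested.

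Phosphofructokinase and aldolase form and split fructose 1,6-bisphosphate. *Pfkp* (ENSMUSG00000021196, chromosome 13, 6579768 to 6648777), the platelet-type phosphofructokinase, had 134 to 142 CPM in 4sU RNA of WT and 85.8 to 107 CPM in KO. Its total RNA was 501 to 519 CPM in WT and 296 to 328 CPM in KO, a fold of 0.609 (log2 fold change -0.71, SE 0.06, adjusted p = 1.31e-16, edgeR). *Aldoa* (ENSMUSG00000030695, chromosome 7, 126795234 to 126800751) had the highest CPM of the members in WT total RNA, at 2016, 2102 and 1968 CPM. This place is by uniquely placed reads, and *Gapdh*, *Eno1*, *Pgk1* and *Pkm*, with more copied windows, were counted only in part. The total RNA of *Aldoa* in KO was 1120 and 1066 CPM in clone 1 and 1069 and 1074 CPM in clone 2, a fold of 0.533. In 4sU RNA *Aldoa* had 468, 525 and 432 CPM in WT and 280, 289, 288 and 304 CPM in KO. Both differences far exceeded the spread between cultures (log2 fold change -0.91, SE 0.05, adjusted p = 2.91e-22 in total, and -0.71, SE 0.06, adjusted p = 8.94e-16 in nascent RNA, edgeR).

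*Gapdh* (ENSMUSG00000057666, chromosome 6, 125161715 to 125166467), glyceraldehyde-3-phosphate dehydrogenase, was the one member not called in either kind of RNA. Only 28 to 59 reads per total library were assigned to it, beside 992 to 1662 in the 4sU libraries. Its 4sU values were 437, 431 and 382 CPM in WT and 397, 360, 429 and 437 CPM in KO, which overlapped (log2 fold change -0.04, SE 0.06, adjusted p = 0.689, edgeR). In total RNA it had 5.37, 4.59 and 5.81 CPM in WT and 7.31, 7.71, 5.64 and 5.99 CPM in KO, which overlapped as well, at 0.34 on the log2 scale (SE 0.18, adjusted p = 0.12, edgeR). The total RNA difference passed the threshold in 3 alternatives, at 0.43 with TMM within each kind of RNA (adjusted p = 0.0462), 0.49 with library totals (adjusted p = 0.0211) and 0.54 with clone 1 only (adjusted p = 0.0277). The nascent estimate turned to 0.17 (adjusted p = 0.0239) with libraries scaled by their totals. Less the median of chromosome 6, the estimates were -0.57 in nascent and -0.09 in total RNA. The genes with most counts among those holding exact *Gapdh* windows were *Peli2*, with 186 to 265 counts per WT total library, the transcribed pseudogene *3000002C10Rik*, with 12 to 22, and the pseudogene *Gm12419*, with 30 to 35. These *Gapdh* values describe the few unique stretches of the gene and are no measure of its abundance.

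*Pgk1* (ENSMUSG00000062070, chromosome X, 106187100 to 106203699), phosphoglycerate kinase, makes the first ATP of the pathway, and was counted at 39 to 58 reads per 4sU and 63 to 157 per total library. It had 17.6, 18.95 and 20.9 CPM in 4sU RNA of WT and 11.04, 13.1, 12.9 and 13.7 CPM in KO. Its total RNA values were 24.4, 25.7 and 18.5 CPM in WT and 10.02, 10.8, 12.2 and 10.9 CPM in KO, the largest difference among the members (log2 fold change -1.05, SE 0.14, adjusted p = 2.91e-09, edgeR). The nascent difference of -0.60 (SE 0.18, adjusted p = 0.00539, edgeR) was not called with the single-end run alone (-0.18, adjusted p = 0.729) or with libraries scaled by their totals (-0.39, adjusted p = 0.0631). *Pgk1-rs7* and *Gm5537*, both processed pseudogenes, held 67.9% and 67.7% of its windows and had no count in any total library.

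*Eno1* (ENSMUSG00000063524, chromosome 4, 150236721 to 150248879) encodes the main enolase, which makes phosphoenolpyruvate. It had 200 to 211 CPM in 4sU RNA of WT against 142 to 163 CPM in KO, and 167 to 184 CPM in total RNA of WT against 105 to 118 CPM in KO. Its log2 fold changes were -0.44 in nascent (SE 0.07, adjusted p = 3.15e-07, edgeR) and -0.65 in total RNA (SE 0.06, adjusted p = 1.36e-13, edgeR). The gene with most counts among those sharing its windows was *Eno1b*, a protein-coding retrogene on chromosome 18 that held 70.5% of the *Eno1* windows. Of the windows of *Eno1b* itself, 84.5% occurred in other annotated genes, so it too was counted only in part. By uniquely placed reads *Eno1b* was also lower in KO total RNA, at 23.1 ± 4.90 CPM in WT (SD, n = 3) and 13.9 ± 1.85 CPM in KO (SD, n = 4).

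The last enzymes of the pathway were abundant and little spread. *Pkm* (ENSMUSG00000032294, chromosome 9, 59656368 to 59679375), pyruvate kinase, makes the second ATP and had 1791, 1830 and 1805 CPM in total RNA of WT. Its total RNA in KO was 1186, 1157, 1178 and 1115 CPM, a fold of 0.641 (log2 fold change -0.64, SE 0.05, adjusted p = 1.94e-17, edgeR). In 4sU RNA *Pkm* had 451, 473 and 475 CPM in WT and 375, 368, 379 and 388 CPM in KO, the smallest nascent difference of the 8 (log2 fold change -0.31, SE 0.05, adjusted p = 3.62e-06, edgeR). That nascent call was lost with library totals alone (-0.10, adjusted p = 0.114). *Ldha* (ENSMUSG00000063229, chromosome 7, 46841475 to 46855627), the muscle-type subunit of lactate dehydrogenase, had 1079, 1168 and 1141 CPM in total RNA of WT and 713, 721, 713 and 696 CPM in KO. Its 4sU values were 247, 282 and 268 CPM in WT and 181, 187, 178 and 182 CPM in KO. Both differences were called (log2 fold change -0.67, SE 0.05, adjusted p = 1.86e-17 in total, and -0.55, SE 0.06, adjusted p = 2.67e-11 in nascent RNA, edgeR).

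The *Ddx6* KO clones did not differ detectably in any member. In the fit with the clones as separate groups, 0 of 10 members passed an adjusted p of 0.05 in edgeR for nascent RNA, mRNA or stability, where 0.172%, 0.296% and 0.00689% of all genes did. Each clone had 2 cultures, and with so few calls over all genes 0 of 10 says nothing particular of the members. The clone 2 minus clone 1 estimates ranged from -0.08 to 0.19 in nascent and from -0.38 to 0.15 in total RNA, and the estimate farthest from 0 was that of *Gapdh* in both.

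Stability was compared as the change of total over 4sU RNA between genotypes, which is the interaction of genotype and kind of RNA. Here 1 of 10 members was called lower and 0 higher, beside 8.6% and 3.78% of all genes, and 1.08% of all genes passed a log2 fold change of 1 as well. The called gene was *Pkm*. Its log2 ratio of total to 4sU RNA was 1.99, 1.95 and 1.92 in WT and 1.66, 1.65, 1.63 and 1.52 in KO, so all KO cultures were below WT. The stability change of *Pkm* was -0.34 (SE 0.07, adjusted p = 0.000722, edgeR), and it was -0.28 (adjusted p = 0.0151) with the single-end 4sU run alone. *Slc2a1* was the member with the opposite tendency that could be counted without copies. Its log2 ratio was 0.31, 0.31 and 0.13 in WT and 0.50, 0.46, 0.48 and 0.56 in KO, with a stability change of 0.25 that missed the threshold (SE 0.09, adjusted p = 0.0667, edgeR). The same value passed it in DESeq2 (0.31, adjusted p = 0.0153) and with TMM factors computed within each kind of RNA (0.34, adjusted p = 0.0112).

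The other 8 members were not called in stability. Their estimates were -0.28 for *Hk1*, -0.12 for *Hk2*, -0.21 for *Pfkp*, -0.20 for *Aldoa*, 0.37 for *Gapdh*, -0.45 for *Pgk1*, -0.21 for *Eno1* and -0.12 for *Ldha*. The median over the members was -0.20 and that over all tested genes -0.09. KO and WT cultures did not overlap in the ratio for 6 members, as was so for 22.9% of all genes. With libraries scaled by their totals alone, *Hk1*, *Aldoa* and *Eno1* also passed the threshold, at -0.32, -0.25 and -0.26.

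**Figure D3:**
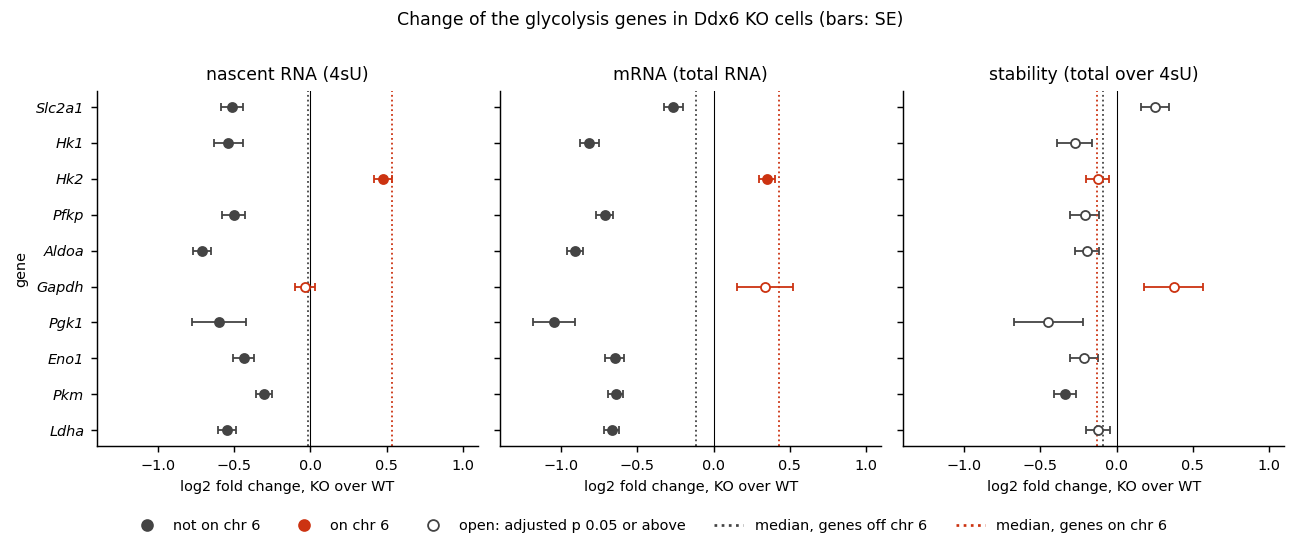
Log2 fold change of KO over WT for each member in nascent RNA, mRNA and stability (x axis, bars are SE). Filled points passed an adjusted p of 0.05, members on chromosome 6 are red, and dotted lines are the medians of genes on and off that chromosome. In nascent RNA and mRNA the 8 members that lie elsewhere are all to the left of 0, while in stability *Pkm* alone is filled.

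A transcript that decays slowly has more total RNA for each newly made molecule, and by the ratio of total to 4sU RNA in WT *Aldoa*, *Ldha*, *Pkm* and *Pfkp* were near the top of all genes. The log2 ratio was 2.10 ± 0.09 for *Aldoa*, 2.09 ± 0.04 for *Ldha*, 1.95 ± 0.03 for *Pkm* and 1.90 ± 0.05 for *Pfkp* (SD, n = 3), on a scale with a pseudocount of 0.5 CPM. These values were at the 98.1, 98.1, 97.0 and 96.4 percentiles of 14518 genes. *Hk1* stood at the 85.1 percentile, *Hk2* at 69.8 and *Slc2a1* at 55.1. *Gapdh* stood at 0.1, *Eno1* at 42.3 and *Pgk1* at 54.8, the genes with most copied windows. With the single-end 4sU run alone, so that both kinds of RNA had single-end reads, *Eno1* moved to 69.8, *Pgk1* to 94.3 and *Pkm* to 98.9. The place of *Pgk1* there rests on few reads, at 6.22 CPM in single-end 4sU RNA of WT. *Gapdh* remained low under the same setting, at 0.8, with 83.2 CPM in single-end 4sU RNA beside 5.26 ± 0.62 CPM (SD, n = 3) in total RNA of WT. In KO, *Aldoa* stood at 98.4, *Ldha* at 98.7, *Pkm* at 95.8 and *Hk1* at 82.7, while *Slc2a1* stood at 66.8.

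Per kilobase of exon, the order of levels in total RNA of WT was *Aldoa* at 905 CPM per kb, *Pkm* at 696, *Ldha* at 596, *Pfkp* at 119, *Hk2* at 99.7, *Eno1* at 69.8, *Slc2a1* at 59.2, *Hk1* at 36.5, *Pgk1* at 12.5 and *Gapdh* at 3.52. Neighbours in this order did not overlap between cultures. In KO total RNA the order changed in 2 places, with *Hk2* (127 CPM per kb) above *Pfkp* (72.6) and *Slc2a1* (49.4) above *Eno1* (44.5). In 4sU RNA of WT *Gapdh* was first at 279 CPM per kb, followed by *Aldoa* at 212 and *Pkm* at 179. The places of *Gapdh*, *Pgk1*, *Eno1* and *Pkm* depend on the reads that could be placed.

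Isoenzymes of a step can replace each other. The share of each member in the summed per-length level of its step was therefore compared between 3 WT and 4 KO cultures. *Slc2a3*, *Hk2* and *Ldhb*, the partners of *Slc2a1*, *Hk1* and *Ldha*, lie on chromosome 6. Genes there had a median log2 fold change of 0.53 in nascent and 0.43 in total RNA, and the part of the chromosome in the shares was not tested. *Hk1* made up 26.8% ± 0.683 of the *Hk1* and *Hk2* total RNA in WT (SD, n = 3) and 14.1% ± 1.60 in KO (SD, n = 4). *Slc2a1* made up 12.3% ± 0.416 of *Slc2a1* and *Slc2a3* total RNA in WT and 6.97% ± 0.148 in KO (SD, n = 3 and 4). In 4sU RNA its share went from 32.3% ± 0.319 to 15.2% ± 0.840 (SD, n = 3 and 4), with *Slc2a3* the larger part in both genotypes. These shares are of uniquely placed reads, and *Eno1* has 72.2% of its windows copied and *Eno3* none, so that only part of *Eno1* could be counted in them. For *Eno1* the share of enolase total RNA was 80.6% ± 2.01 in WT and 61.1% ± 0.603 in KO, while *Eno3*, the muscle enolase, had 15.0% ± 1.40 and 33.5% ± 0.715 (SD, n = 3 and 4). *Ldha* moved the other way, from 92.8% ± 0.36 to 96.0% ± 0.274 of *Ldha* and *Ldhb* total RNA (SD, n = 3 and 4). Each of these shares separated all KO from all WT cultures, for which the exact two-sided permutation test gives p = 0.057, the smallest it can reach with 3 against 4 cultures, and an adjusted p of 0.0952 over the 20 shares tested. No share could thus pass 0.05.

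The share of *Pfkp* among the phosphofructokinases differed less, at 56.0% ± 0.737 in WT and 54.4% ± 0.659 in KO total RNA (SD, n = 3 and 4), but it too separated all KO from all WT cultures at the smallest p (exact p = 0.057). *Pfkl* and *Pfkm* were lower as well. In total RNA, *Pfkl*, the liver type, went from 286 ± 11.5 to 184 ± 6.84 CPM, and *Pfkm*, the muscle type, from 50.0 ± 3.63 to 34.2 ± 2.71 CPM (SD, n = 3 and 4). *Aldoa* was 99.0% ± 0.0503 of aldolase total RNA in WT and 98.9% ± 0.0876 in KO (SD, n = 3 and 4), and *Aldoc* fell beside it.

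**Figure D4:**
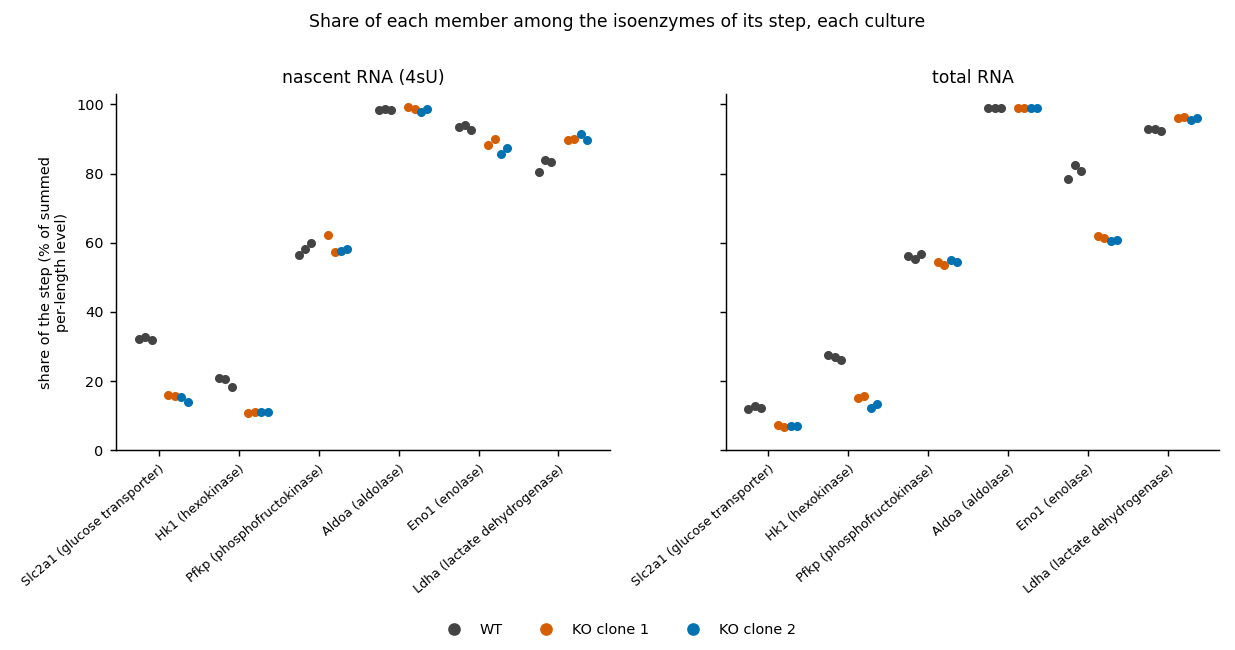
Share of 1 member in the summed per-length level of the isoenzymes of its step (y axis, %), in 4sU and total RNA, with a point for each culture of WT, KO clone 1 and KO clone 2. The enolases summed were *Eno1*, *Eno2* and *Eno3*, without *Eno1b*, and the lactate dehydrogenases were *Ldha* and *Ldhb*. The KO cultures lie below WT for *Slc2a1*, *Hk1* and *Eno1* and above WT for *Ldha* in both kinds of RNA, while those of *Aldoa* overlap with WT.

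The remaining genes of the pathway were taken from a list of 25, of which 18 passed the filter. In total RNA 10 of these were lower, 4 higher and 4 not called, beside 31% lower and 19.5% higher over all tested genes. In nascent RNA 7 were lower, 3 higher and 8 not called, beside 21% lower and 20.6% higher over all. Their median log2 fold change was -0.31 in total and -0.09 in nascent RNA. That of the members was -0.66 and -0.51, and that of all tested genes -0.10 and 0.00. *Slc2a3*, the high-affinity glucose transporter GLUT3, had 379, 412 and 452 CPM in 4sU RNA of WT and 767, 736, 778 and 814 CPM in KO. Its log2 fold change was 0.90 in nascent (SE 0.06, adjusted p = 2.99e-20, edgeR) and 0.65 in total RNA (SE 0.05, adjusted p = 2.77e-16, edgeR), and it was lower in stability (-0.25, SE 0.08, adjusted p = 0.0185, edgeR). *Eno3* had 20.3 ± 1.33 CPM in WT and 38.3 ± 2.53 CPM in KO total RNA (SD, n = 3 and 4), a fold of 1.89. *Ldhb*, the heart-type subunit of lactate dehydrogenase, fell from 60.3 ± 4.51 to 20.2 ± 1.46 CPM in total RNA (SD, n = 3 and 4), or -1.58 on the log2 scale (SE 0.10, adjusted p = 4.90e-21, edgeR). *Gpi1*, the isomerase between hexokinase and phosphofructokinase, had the largest stability change among the 4 of the list that were called, -0.42 (SE 0.09, adjusted p = 0.00122, edgeR), with total RNA of 447 ± 10.4 CPM in WT and 302 ± 8.69 CPM in KO (SD, n = 3 and 4).

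Calls of the glycolysis genes on chromosome 6 went in both directions, and the part of the chromosome in them was not tested. Of the 2 members and 5 other tested glycolysis genes on it, *Hk2*, *Slc2a3*, *Tpi1* and *Bpgm* were higher in KO total RNA, *Gapdh* and *Eno2* were not called, and *Ldhb* was lower. Over all tested genes, 58.6% of those on chromosome 6 and 17.4% of those elsewhere were higher in total RNA, so 4 of 7 is near the background of the chromosome. *Tpi1*, *Bpgm* and *Eno2* are named for their chromosome, after their values were seen. Of the genes elsewhere, 8 of 8 members and 9 of 13 others were lower in total RNA, and *Eno3* alone was higher. Over all tested genes, on any chromosome, 31% were lower in total RNA. With scaling factors taken from genes outside chromosome 6, the counts of members called did not change.

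**Figure D5:**
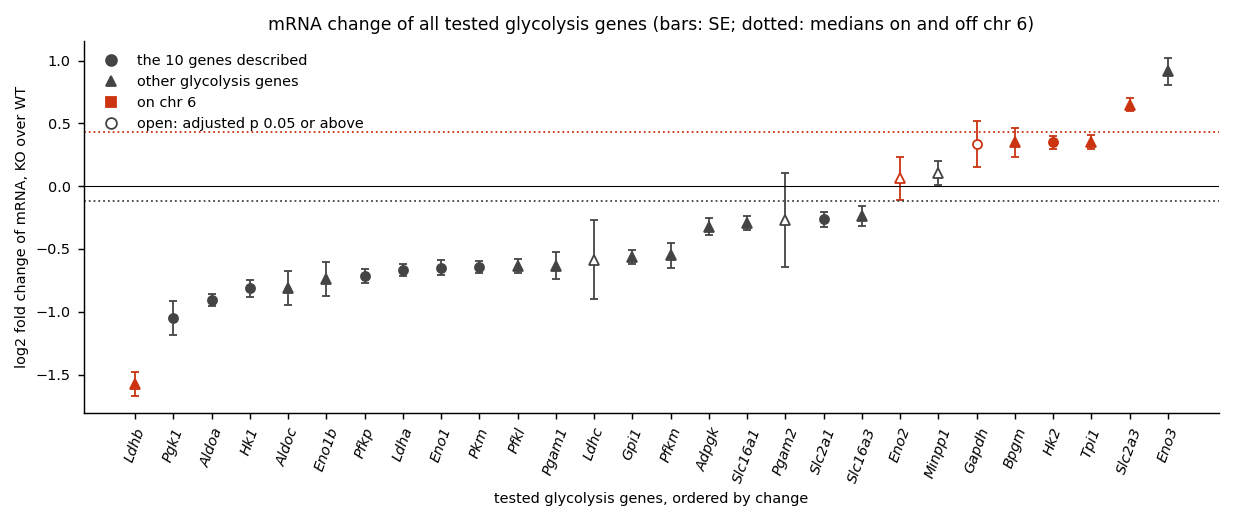
Log2 fold change of mRNA in KO over WT (y axis, bars are SE) for the 10 members (circles) and 18 other tested glycolysis genes (triangles), ordered by value, with genes on chromosome 6 in red, open symbols for genes that were not called, and dotted lines at the medians on and off chromosome 6. *Ldhb* is lowest at -1.58 and *Eno3* highest at 0.92, and 5 of the 7 genes on chromosome 6 lie above 0.3.

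Genes of neighbouring pathways were counted in the same way in KO total RNA. All 5 genes of the serine branch, which leaves glycolysis at 3-phosphoglycerate, were lower in both nascent and total RNA, such as *Phgdh*, its first enzyme, from 52.3 ± 3.77 to 28.5 ± 3.15 CPM in total RNA (SD, n = 3 and 4). Of the 5 enzymes that set fructose 2,6-bisphosphate, the activator of phosphofructokinase, 4 were higher and 0 lower, where 19.5% of all genes were higher. Among the 4 was *Tigar* on chromosome 6, at 0.25 on the log2 scale beside a chromosome median of 0.43. KO and WT cultures did not overlap in total RNA for 2 of the 5 enzymes, a separation that 52.4% of all genes showed. *Pfkfb3* rose from 18.2 ± 3.80 to 40.4 ± 3.07 CPM in nascent RNA (SD, n = 3 and 4). In total RNA it was low, at 7.49 ± 0.39 CPM in WT and 12.2 ± 2.86 CPM in KO (SD, n = 3 and 4). Of 19 tested genes of the HIF-1 pathway and its non-glycolytic targets, 9 were lower and 5 higher. *Ddit4*, an inhibitor of mTORC1 signalling, had the largest nascent difference of that list, from 164 ± 14.3 to 61.4 ± 4.78 CPM (SD, n = 3 and 4). Of 13 genes of pyruvate entry into mitochondria 8 were lower and 1 higher, and of 16 tricarboxylic acid cycle genes 12 were lower and 2 higher. Of 7 pentose phosphate genes 3 were lower and 0 higher, with the transketolase *Tkt* at 831 ± 8.97 CPM in WT and 478 ± 3.17 CPM in KO (SD, n = 3 and 4). Of 9 tested glycogen genes 4 were lower and 1 higher, and of 4 tested gluconeogenesis genes 3 were lower and 0 higher. Since 31% of all genes were lower and 19.5% higher in total RNA, a share near these in a list says nothing particular of it. In nascent RNA 21% of all genes were lower.

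Sequence features that were not used to choose the members varied among them. Their coding sequences had G or C at 54.3% to 72.8% of the third codon positions, and 8 of 10 lay above the median of 60.9% over 11961 tested protein-coding genes. The 3′ untranslated regions ran from 178 bases in *Gapdh* to 2285 in *Hk2*, and 7 of 10 were shorter than the median of 1037. The hexamer GCACTT, which matches the AAGUGC seed of the main ESC microRNA family, occurred in the 3′ untranslated region of 3 members, *Slc2a1*, *Pfkp* and *Ldha*, and in 31.6% of those genes, so it was about as frequent in the members as elsewhere.

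RefSeq (GRCm38.p6) lists 17 start sites for the 10 members, and the 250 bases before each were searched on both strands for ACGTG and GCGTG, the core of the element bound by hypoxia-inducible factors. One or both occurred before 14 of the 17 starts, beside 38.6% of 32851 promoters of this length. The first listed starts of *Hk1*, *Aldoa* and *Pkm* had none. Each member had a match before at least 1 start, a count per gene for which no share over all genes was computed. Starts of a gene can overlap, and the GC content of these windows was 49.6% to 71.2% against a median of 52.4%. GGGCGG, the GC box, occurred before 10 of 17 starts and 32.7% of all, and TATAAA before 0 of 17 and 12.4% of all. Promoters are shown for 3 genes that were lower in KO and for *Hk2*, which was higher, with every base of such a core in capitals. ACGTG and CACGTG, the E-box, overlap in *Ldha*. CACGTG occurred before 1 of 17 starts and 6% of all, so it was about as frequent in the members as elsewhere.
Aldoa: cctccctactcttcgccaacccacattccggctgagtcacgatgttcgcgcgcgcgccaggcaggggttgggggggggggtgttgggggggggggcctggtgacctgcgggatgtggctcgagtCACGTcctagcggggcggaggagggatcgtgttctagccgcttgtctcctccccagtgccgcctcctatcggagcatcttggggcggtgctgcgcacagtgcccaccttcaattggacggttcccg
Ldha: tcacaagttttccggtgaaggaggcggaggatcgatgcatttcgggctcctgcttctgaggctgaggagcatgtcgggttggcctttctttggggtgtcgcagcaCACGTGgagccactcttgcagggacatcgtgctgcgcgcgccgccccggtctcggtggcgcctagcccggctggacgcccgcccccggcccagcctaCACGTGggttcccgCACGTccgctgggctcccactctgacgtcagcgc
Pgk1: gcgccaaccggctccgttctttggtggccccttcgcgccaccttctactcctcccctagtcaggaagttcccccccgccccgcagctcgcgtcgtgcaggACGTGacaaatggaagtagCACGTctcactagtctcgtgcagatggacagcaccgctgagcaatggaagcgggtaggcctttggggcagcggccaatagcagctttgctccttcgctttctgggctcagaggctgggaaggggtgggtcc
Hk2: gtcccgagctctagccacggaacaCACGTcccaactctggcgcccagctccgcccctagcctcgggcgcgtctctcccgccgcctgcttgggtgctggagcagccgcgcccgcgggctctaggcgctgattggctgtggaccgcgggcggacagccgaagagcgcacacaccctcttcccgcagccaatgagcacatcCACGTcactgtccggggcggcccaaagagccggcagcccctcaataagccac
They lie at chr7:126799255-126799504 (minus strand, the second listed *Aldoa* start), chr7:46845554-46845803 (plus strand, the first *Ldha* start), chrX:106186850-106187099 (plus strand) and chr6:82774455-82774704 (minus strand). A match in a window is a description of letters and was not tested for binding.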

How the data were processed

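Libraries of 4sU and total RNA from 3 WT and 4 *Ddx6* KO cultures were grouped by their labels. Per the labels and methods, the authors trimmed reads (cutadapt 1.14), aligned them to mm10 keeping unique alignments (STAR 2.5.3a) and deposited raw counts per gene (featureCounts 1.5.3, reverse strand, Gencode M14). The 2 runs of each 4sU library were summed. All 92 ERCC rows were at 0 and were left out, so no absolute scale exists. Depth limited precision most for *Gapdh* in total RNA and for *Pgk1*, which had few counts.

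Counts were fitted with edgeR 4.0.16 (R 4.3.3), with TMM factors over 14 libraries, a minimum of 3 CPM in 3 libraries, robust quasi-likelihood tests and Benjamini-Hochberg adjustment over 14518 genes, calling an adjusted p below 0.05. The script was tested on simulated data. Isoenzyme shares were tested by exact permutation (scipy 1.17.1). Named genes were the members, *Ddx6*, isoenzymes, the 3 copy-holding genes with most counts per member and, per list and contrast, up to 4 called genes with the largest change whose KO and WT cultures did not overlap. The members and lists were chosen with earlier results of these data known. Copied windows were searched in annotated transcripts of other genes on both strands, not in the whole genome, and genes overlapping a member's own locus were left out. Alternatives were DESeq2 1.42.0, limma-voom (limma 3.58.1), other scalings and filters, single runs, single clones, left-out cultures and replicate blocks. Same-numbered samples were checked for pairing, and 4sU and total libraries of 1 culture deviated together with a mean correlation of 0.068 (0.0035 to 0.125).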

Additional observations from a re-analysis of the deposited data

Results flagged for a closer look

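Total RNA of *Aldoa* in the 4 KO cultures was 1120, 1066, 1069 and 1074 CPM, and the highest lay apart from the others, with a gap of 0.861 of the whole range, past Dixon's critical value for 4 samples. Chance places about 1 in 20 groups past that value, and 30 groups were examined. All 4 cultures were below the lowest WT culture at 1968 CPM.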

How the results depend on the processing

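Of the 10 genes, 8 lower and 1 higher in nascent and in total RNA, and 1 lower in stability, were also counted with each culture left out in turn, which gave 8, 1, 8, 1, 1 and 0. With library totals alone the counts were 6 lower and 2 higher in nascent, 7 lower and 2 higher in total RNA and 4 lower in stability, the added higher gene being *Gapdh*, while *Pgk1* and *Pkm* lost their nascent and *Slc2a1* its total RNA call. Total RNA also had 2 higher with TMM within each kind of RNA and with clone 1 only, and stability had 1 higher under those and under DESeq2. With a log2 fold change above 1 required, 0 were higher, 0 lower in nascent, 1 lower in total RNA and 0 lower in stability.

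Over all genes, 2985 were higher and 3050 lower in nascent, 2831 and 4500 in total RNA and 549 and 1248 in stability. Library totals gave 5274 and 1840 in nascent and 4273 and 2817 in total RNA. Paired-end 4sU runs alone gave 1925 higher in nascent and 761 lower in stability. Requiring a log2 fold change above 1 gave 746 and 841, 767 and 705, and 100 and 57. Stability had 763 lower with DESeq2, 577 with TMM within each kind of RNA, 669 with a minimum of 1 count, 717 with clone 1 and 715 with clone 2. Leaving out 1 culture gave 358 to 509 higher and 668 to 1133 lower in stability. The causes were not tested.

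Nascent *Gapdh* was 0.17 with library totals, 0.02 with a minimum of 1 count, 0.01 with paired-end runs alone, 0.07 with clone 2 only and between -0.10 and 0.02 with 1 culture left out, the highest without KO clone 1 culture 2. In 4sU RNA, share differences with 1 culture left out ran from -0.09 to 0.37 points for *Aldoa*, -1.17 to 0.46 for *Pfkl*, -0.65 to 0.47 for *Pfkm* and -0.44 to 1.57 for *Pfkp*. The stability call of *Pkm* held in 19 refits (-0.40 to -0.25, adjusted p 4.38e-05 to 0.0248, edgeR, DESeq2 or limma) and was lost where a log2 fold change above 1 was required. With replicate number as a block the members' counts were 8 lower and 1 higher in nascent and in total RNA and 1 lower in stability, and with culture as the block *Pkm* stability was -0.34 (adjusted p = 0.000251, edgeR).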
